A study of Mus musculus with 3 samples.

Results

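The genes described here are the vascular endothelial growth factor (VEGF) ligands Vegfa, Vegfb, Vegfc and Vegfd, their receptors Flt1, Kdr and Flt4, and the co-receptors Nrp1 and Nrp2. They were chosen by symbol, and all 9 were matched by Ensembl ID among the 30406 genes listed in every library. Nuclei came from snap-frozen whole mouse corneas and were profiled by droplet sequencing with the 10x Genomics 3' kit, version 3. There were 3 groups with 1 library each, and each library pooled 5 mice at 7 weeks of age. WT was untreated wild-type cornea, KO was untreated cornea of mice lacking Aire, and KO_PBS was cornea of mice lacking Aire that were given phosphate-buffered saline for 14 days. Aire controls the display of self-antigens in the thymus, and mice without it serve as a model of autoimmune dry eye. The deleted part of Aire and the strain are not given in the sources used here. The series text gives an age of 6 weeks and treatment day 7 instead, and a lacripep arm that it names was not analysed here. With 1 library a group no difference has a replicate check, so no p-value is given, and every interval below is an exact 95% interval that covers counting error only.

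VEGF ligands are secreted proteins that drive the growth of blood and lymphatic vessels by binding receptor tyrosine kinases on endothelial cells. Vegfa signals for blood vessel growth mainly through Kdr, Vegfb binds Flt1, and Vegfc and Vegfd act through Flt4 on lymphatic vessels. Flt1 binds Vegfa tightly, signals weakly and also gives a soluble form that holds ligand away from Kdr, and in the cornea this decoy is known for helping to keep the tissue free of vessels. Nrp1 and Nrp2 bind both VEGF ligands and class 3 semaphorins. Counts at the 3' end of genes do not separate the soluble form of Flt1 from the full receptor unless isoforms are resolved, so each Flt1 value below is for the gene as a whole.

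The bases just before the start of 4 members are shown because the data set these genes apart. Vegfa had the largest and Vegfb the smallest ratio of KO to WT, and Flt1 and Kdr are the receptors whose RNA was richest in barcodes with vascular markers. Each window holds the 250 bases before the RefSeq start on build GRCm38.p6, written 5′ to 3′ in the sense of the gene. Capitals mark the letters ACGTG or GCGTG, the core of a hypoxia-response element, and AGGAAG, a motif of ETS-type factors, each searched on both strands.
Vegfa, chr17:46032378-46032627, minus strand: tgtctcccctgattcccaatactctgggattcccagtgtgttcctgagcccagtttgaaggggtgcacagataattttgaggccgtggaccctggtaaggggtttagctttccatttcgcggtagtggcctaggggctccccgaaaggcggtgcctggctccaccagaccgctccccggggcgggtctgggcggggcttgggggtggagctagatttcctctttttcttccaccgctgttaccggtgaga
Vegfb, chr19:6987652-6987901, minus strand: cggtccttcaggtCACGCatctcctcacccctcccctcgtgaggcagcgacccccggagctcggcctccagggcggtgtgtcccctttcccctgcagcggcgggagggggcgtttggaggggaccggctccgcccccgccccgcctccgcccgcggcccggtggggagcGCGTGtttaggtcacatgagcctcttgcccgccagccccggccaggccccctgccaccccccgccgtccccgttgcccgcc
Flt1, chr5:147726012-147726261, minus strand: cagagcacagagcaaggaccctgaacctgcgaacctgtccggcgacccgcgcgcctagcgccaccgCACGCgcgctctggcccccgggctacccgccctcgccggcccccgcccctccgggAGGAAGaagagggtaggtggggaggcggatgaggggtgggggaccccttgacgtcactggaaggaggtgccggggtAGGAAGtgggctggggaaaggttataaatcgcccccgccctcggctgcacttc
Kdr, chr5:75978456-75978705, minus strand: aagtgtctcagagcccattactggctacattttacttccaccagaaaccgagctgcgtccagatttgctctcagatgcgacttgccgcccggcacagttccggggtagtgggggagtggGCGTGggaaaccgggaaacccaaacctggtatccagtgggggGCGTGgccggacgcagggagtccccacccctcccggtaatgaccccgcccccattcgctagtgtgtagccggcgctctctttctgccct
The Vegfa window held neither motif. A second start listed for Vegfa has its window at chr17:46025164-46025413, inside the gene, and is not printed. That window held 2 hypoxia cores, but the bases after this start were not found in a transcript of the gene. It was thus not shown to be a promoter. The Vegfb window held 2 hypoxia cores, the Flt1 window held 1 with 2 ETS-type letters, and the Kdr window held 2 hypoxia cores. Of the 32841 RefSeq windows of this length, 38.6% held a hypoxia core and 29.5% held AGGAAG, so neither motif is rare. A match is a description of the letters and not a binding site.

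The libraries differed in more than their labels. They held 178988562 to 352627863 UMIs (unique molecular identifiers, each counting 1 captured RNA molecule) over 96587 to 114357 barcodes, with a median of 1422 to 2970 UMIs a barcode. Pairs of libraries shared 2833 to 3379 barcode sequences, at most 3.16% of the smaller library. Aire itself was near 0, with 15, 27 and 68 UMIs in the 3 libraries; as the deleted part is not given, a 3' count does not check the genotype. Corneal epithelium markers were abundant in every library, with summed levels of 40236, 25948 and 11082 CPM (counts per 1000000 UMIs) in WT, KO and KO_PBS. Of the 10 markers, 2 were higher and 1 lower in KO against WT, so that fall is one of the sum and not of most markers, and 6 were lower in KO_PBS against KO. Markers of tissues inside the eye were far higher in KO_PBS than in KO, by 40.3-fold for the lens list, 30.1-fold for photoreceptors, 18.6-fold for melanocytes and 12.5-fold for retinal pigment epithelium. The corneal endothelium list was 4.51-fold and the mural list 3.83-fold higher. In KO the same 4 lists were below WT, at 0.383, 0.414, 0.372 and 0.415 times its level. Their part in the levels below was not tested. A fall or rise of RNA per nucleus and a change in the number of nuclei of a type cannot be told apart in library sums.

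Member RNA made up a growing part of the sum from WT to KO to KO_PBS, with 70.8, 151 and 306 CPM for the 9 genes together. Among ligands, Vegfa was read at 4.62 CPM in WT (1182 UMIs), 20.1 in KO (7062 UMIs) and 26.8 in KO_PBS (4761 UMIs). This gene lies at chr17:46016993-46032369 on the minus strand of mm10 and encodes the main growth factor for blood vessels. Both knockout libraries were above WT with no overlap of intervals, and Vegfa had the largest KO to WT ratio of the members, 4.35-fold (4.09 to 4.63). Vegfb (chr19:6982473-6987651, minus strand) is a Flt1 ligand linked to fatty acid handling, and it stood at 26.1 CPM in WT, 22.2 in KO and 63.7 in KO_PBS. It was thus slightly lower in KO than in WT, at 0.849-fold, and was highest in KO_PBS. Relative to the median of all genes, however, Vegfb in KO_PBS was at 1.01-fold of WT. Vegfc (chr8:54077606-54187096, plus strand), the chief lymphatic growth factor, was at 2.25, 5.24 and 10.8 CPM in the same order. Vegfd (chrX:164373378-164402650, plus strand), a relative of Vegfc, was at 3.45, 5.28 and 10.9. Both lymphatic ligands were lowest in WT and highest in KO_PBS. Vegfa took 12.7%, 38.1% and 23.9% of the UMIs of the 4 ligands in WT, KO and KO_PBS, while the share of Vegfb was 71.7%, 42.0% and 56.8%.

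Each receptor had its lowest level in WT and its highest in KO_PBS. Flt1 (chr5:147561604-147726011, minus strand) was at 4.18 CPM in WT (1069 UMIs), 10.0 in KO (3517 UMIs) and 33.1 in KO_PBS (5886 UMIs). Kdr (chr5:75932827-75978458, minus strand), the main signalling receptor for Vegfa, was at 4.22, 11.3 and 25.04 CPM. Flt4 (chr11:49609263-49652739, plus strand), the receptor of lymphatic endothelium, was the scarcest member in UMIs, at 0.606 CPM in WT (155 UMIs), 2.09 in KO (733 UMIs) and 7.00 in KO_PBS (1244 UMIs). Flt1 and Kdr held nearly equal parts of the receptor UMIs in WT, 46.4% and 46.9%. In KO the share of Flt1 was lower, at 42.8% (41.8 to 43.9), and that of Kdr was 48.2% (47.1 to 49.3). In KO_PBS the share of Flt1 was 50.8% (49.9 to 51.7) and that of Kdr was 38.4% (37.6 to 39.3). The co-receptors, which are also expressed outside vessels, followed the same order of libraries. Nrp1 (chr8:128358604-128503363, plus strand) was at 11.9, 38.9 and 62.1 CPM, and Nrp2 (chr1:62703285-62818695, plus strand) at 13.5, 35.7 and 66.2. The gene Gm29083 overlaps Nrp2 on the opposite strand and is listed in every library, and whether the counting used strand is not given in the sources used here.

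**Figure D1:**
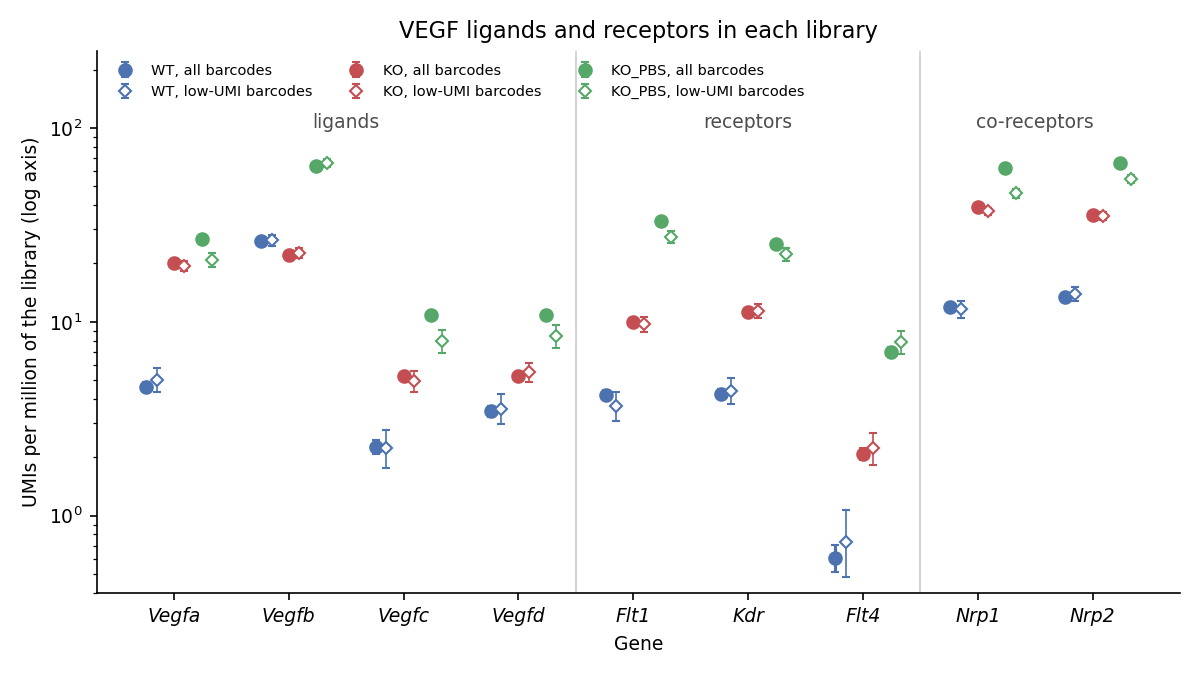
CPM for each gene on a log axis, by library, with 95% Poisson intervals; filled circles are all barcodes and open diamonds are the low-UMI barcodes, the least filled 25% of that library. Vegfb is the exception to the order WT, KO, KO_PBS, with 22.2 in KO against 26.1 in WT, and the diamonds follow the circles from library to library.

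A gene was counted as differing between 2 libraries if both together held 50 UMIs or more, with a fold of at least 2 and Poisson intervals that did not overlap. Between KO and WT, 7 of 9 members were higher and 0 were lower. Of the 20252 genes compared in this way, 20.6% were higher and 8.63% lower. The log2 ratios were 2.12 for Vegfa, 1.78 for Flt4, 1.72 for Nrp1, 1.42 for Kdr, 1.41 for Nrp2, 1.26 for Flt1 and 1.22 for Vegfc. Vegfd, at 0.61, and Vegfb, at -0.24, did not pass. The members' median log2 ratio was 1.41, against 0.24 over all genes compared. Read relative to that median, 6 members were higher where 14.8% of genes were higher and 12.9% lower, and Vegfc, at 0.97, was the call lost.

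Between KO_PBS and KO, 6 of 9 members were higher and 0 lower, where 39.9% of 22416 genes were higher and 4.7% lower. The whole distribution was shifted by 0.63 on the log2 scale, so the scaling decides much of this comparison. Flt4 (1.75), Flt1 (1.73), Vegfb (1.52), Kdr (1.15), Vegfc (1.05) and Vegfd (1.04) passed on the library total. Relative to the median of all genes only 2 members were higher, Flt4 at 1.12 and Flt1 at 1.10, where 29.9% of genes were higher and 12.9% lower. Vegfa had a log2 ratio of 0.41 on the library total but -0.22 relative to the median and -0.27 with TMM scaling, so its direction depends on the scaling. Nrp1 was at 0.67 on the library total and 0.04 relative to the median, and at -0.01 with TMM scaling. Nrp2 was at 0.89 and 0.26 on the first pair of scales.

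Between KO_PBS and WT all 9 members were higher, where 57% of 22138 genes were higher and 4.06% lower, with a shift of all genes of 1.27 on the log2 scale. The ratios ran from 2.44-fold (2.37 to 2.52) for Vegfb to 11.6-fold (9.77 to 13.7) for Flt4. Relative to the median, 6 members were higher where 29.6% of genes were higher and 23.1% lower, and Vegfb, Vegfc and Vegfd, at 0.02, 1.00 and 0.39, were not. The 3 comparisons share libraries and are not independent of each other. Long genes were shifted more than short ones in each, as genes of 100 kb and over had a median log2 ratio of 0.41 between KO and WT against 0.08 for genes under 10 kb. Between KO_PBS and WT these medians were 1.66 and 0.90. Flt1, Nrp1, Nrp2 and Vegfc span over 100 kb each, and Vegfb spans 5.18 kb.

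**Figure D2:**
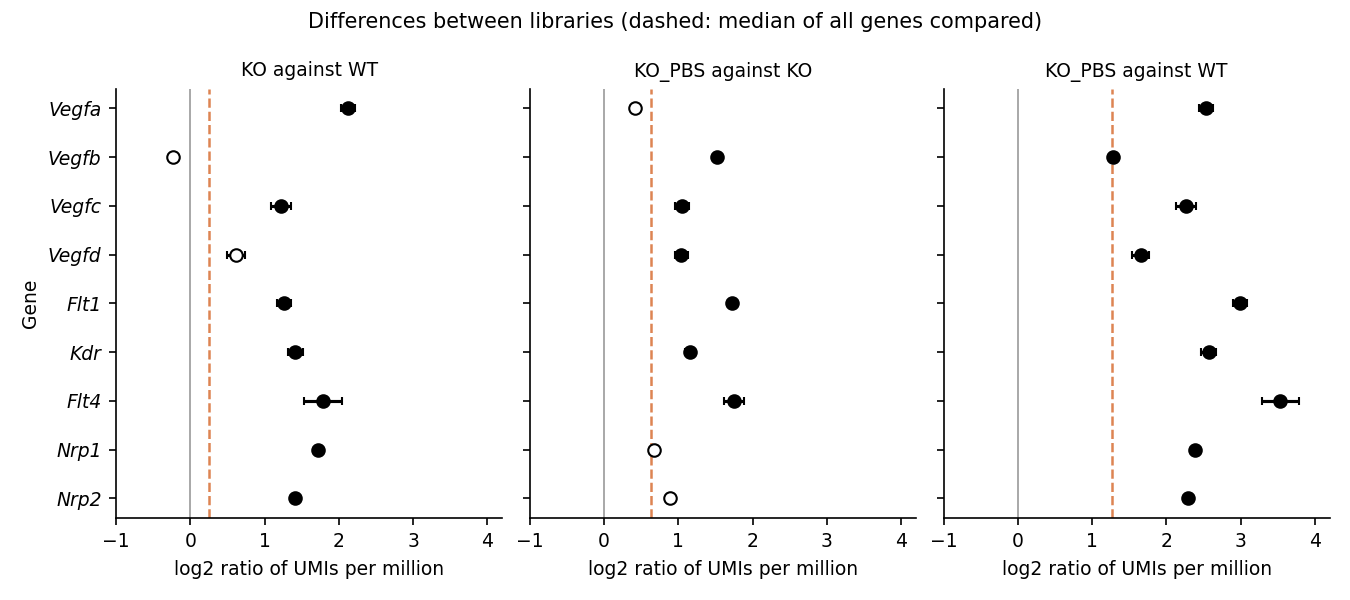
log2 ratio of CPM for each gene in the 3 comparisons, with 95% counting intervals; filled points passed the rule of size, open points did not, and the dashed line is the median of all genes compared. Vegfa is farthest right between KO and WT, and Flt4 and Flt1 are farthest right in both comparisons with KO_PBS.

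Markers of vessels moved with the receptors over the 3 libraries, and those of stroma did so between WT and KO. The summed level of 14 vascular endothelium markers, which include none of the members, was 41.0 CPM in WT, 98.8 in KO and 198 in KO_PBS. For 11 of 14 markers KO was higher than WT and for 10 of 14 KO_PBS was higher than KO, and none was at 0 in any library. Per 100 vascular marker UMIs, Flt1 had 10.2 UMIs (9.55 to 10.8) in WT, 10.1 (9.78 to 10.5) in KO and 16.8 (16.3 to 17.2) in KO_PBS. In library sums Flt1 thus stood in the same proportion to vessel markers in WT and KO within counting error, and in a higher proportion in KO_PBS. In the barcodes rich in vascular markers, described below, Flt1 was at 107, 56.8 and 552 CPM beside markers at 1409, 1867 and 4011. The equal proportion of WT and KO was thus not seen there, though WT and KO held only 23 and 14 Flt1 UMIs. Flt1 spans 164 kb, and the part of gene length in the KO_PBS value was not tested. Kdr had 10.3, 11.4 and 12.7 UMIs per 100 marker UMIs. Vegfa, by contrast, had 11.3 in WT, 20.3 (19.8 to 20.9) in KO and 13.5 (13.1 to 14.0) in KO_PBS. Keratocyte markers, those of the stromal cells, stood at 1297, 4257 and 2469 CPM, with 10 of 11 higher in KO than in WT. KO_PBS was below KO for 5 of them. Immune markers differed more between WT and KO than those of vessels or stroma: the summed macrophage list was 13.1-fold, the T cell list 10.8-fold and the B or plasma cell list 76.0-fold higher in KO, with all 10 macrophage and all 10 T cell markers higher. The part of stromal and immune cells in the member levels was not tested. Vegfc was near level per 100 vascular marker UMIs, at 5.49, 5.30 and 5.48. Against the 7 lymphatic markers, whose sum was 16.9, 32.1 and 155 CPM, Flt4 had 3.58, 6.50 and 4.52 UMIs per 100. Only 3 of these 7 markers were higher in KO than in WT, so that rise is one of the sum and not of most markers. In KO_PBS against KO, 6 were higher.

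Flt1 against its ligands gave a different answer for Vegfa alone than for all ligands. There were 0.904 Flt1 UMIs per Vegfa UMI in WT (0.832 to 0.983), 0.498 in KO (0.478 to 0.519) and 1.24 in KO_PBS (1.19 to 1.28). Fewer Flt1 UMIs per Vegfa UMI were thus present in KO than in WT, and KO_PBS had more than either, with no overlap of intervals. A ratio within a library does not depend on its total, and it is compared only between libraries because gene length and capture differ between the 2 genes. That does not remove the effect of length, as long genes were shifted more between libraries. Between KO_PBS and WT the median log2 ratio was 1.66 for genes of 100 kb and over and 1.27 for those of 10 to 30 kb. Between KO and WT these medians were 0.41 and 0.22. Flt1 spans 164 kb and Vegfa 15.4 kb, and the part of length in their ratio was not tested. Per UMI of the 4 ligands, Flt1 had 0.115 in WT (0.107 to 0.122), 0.190 in KO (0.183 to 0.197) and 0.295 in KO_PBS (0.286 to 0.304). On this scale KO was above WT. Vegfb, which made up most ligand UMIs in WT, counts in this scale and not in the first.

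Flt1 binds Vegfa, Vegfb and Pgf, a placental growth factor that is not among the 9 members. Pgf was at 1.57 CPM in WT, 1.09 in KO and 12.9 in KO_PBS, 11.8-fold higher in KO_PBS than in KO (10.6 to 13.2). Per UMI of these 3 ligands, Flt1 had 0.129 in WT, 0.231 in KO and 0.320 in KO_PBS. Without barcodes rich in vascular or lymphatic markers the Vegfa ratio was 0.886, 0.496 and 1.21. Without those rich in markers of retinal pigment epithelium, melanocytes, photoreceptors or lens it was 0.899, 0.497 and 1.26. Neither removal could move the ratio far: the first left 1046 of 1069, 3501 of 3517 and 5737 of 5886 Flt1 UMIs of WT, KO and KO_PBS, and the second 4587 of 4761 Vegfa UMIs of KO_PBS. The part of vessel or inner-eye RNA in the other barcodes was not tested.

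**Figure D3:**
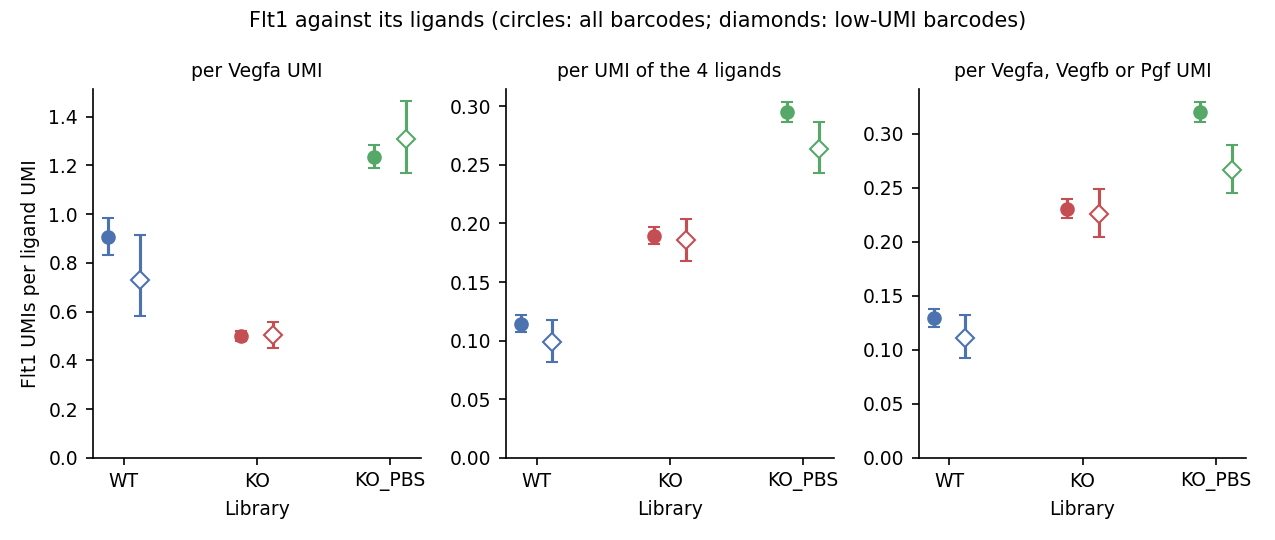
Flt1 UMIs per UMI of Vegfa, of the 4 ligands, and of Vegfa, Vegfb and Pgf together, by library, with 95% intervals; circles are all barcodes and diamonds the low-UMI barcodes. KO is the lowest library per Vegfa UMI (0.498) and lies between WT and KO_PBS on both other scales.

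Most member UMIs were not in barcodes that could be given a cell class. A barcode was put in a class when at least 3 different markers of that class had a UMI and their sum stood well above the expectation from the library (a score of at least 6, the −log10 of the Poisson tail). Such marker-rich barcodes were few, and 94.9%, 95.4% and 97.7% of the barcodes that passed the filters in WT, KO and KO_PBS had no class. As a reference for RNA outside such nuclei, the least filled 25% of barcodes of each library, by UMIs, were summed, and they were not shown to be empty. In these low-UMI barcodes Vegfa had 5.02 CPM in WT against 19.4 and 20.9 for KO and KO_PBS, and Flt1 had 3.66, 9.74 and 27.3. With WT as the base, the members counted as higher in these barcodes numbered 7 for KO and 9 for KO_PBS. With KO as the base, only 3 (Vegfb, Flt1 and Flt4) were counted as higher for KO_PBS. The share of all genes was not counted in the low-UMI barcodes, so these counts have no background and do not set the members apart. The Vegfa intervals of KO and KO_PBS overlapped there. In what follows a class is said to be above this reference when the interval of its level lies above that of the low-UMI barcodes, a description and not a test.

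Flt1 and Kdr were above this reference in the vascular marker-rich barcodes of every library, and Flt4 in those of WT (2 UMIs) and KO_PBS (7 UMIs) but not of KO. These barcodes numbered 33, 50 and 97 in WT, KO and KO_PBS, with a median of 5658, 4573 and 2389 UMIs. Egfl7, Emcn, Cdh5, Cyyr1, Adgrl4 and Ptprb were among the leading genes of 1 or more libraries, but they are markers on which the barcodes were chosen. Of the genes not used for the choice, Ctla2a, Fabp4 and Plvap were among the 10 leading genes by fold over the library in WT and KO, and Mctp1, Flt1, Ldb2 and Selp in KO_PBS. The haemoglobin genes Hbb-bs and Hba-a1 were also among the 10 leading genes in KO. Flt1, which was not used to choose these barcodes, ranked 16th of 3210 genes in WT, 66th of 4463 in KO and 8th of 6008 in KO_PBS.

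The level of Flt1 in vascular marker-rich barcodes was 107 CPM in WT (67.8 to 160, 23 UMIs), 56.8 in KO (31.1 to 95.4, 14 UMIs) and 552 in KO_PBS (467 to 649, 149 UMIs). These are 29.2, 5.83 and 20.2 times the level in the low-UMI barcodes of the same library. KO and WT held too few UMIs for the rule of size, and their ratio was 0.531 with an interval of 0.253 to 1.08. KO_PBS was 9.72-fold above KO (5.61 to 18.2) and 5.17-fold above WT (3.32 to 8.40). In this class 12% of 1313 genes were higher and 4.65% lower in KO against WT. In KO_PBS 18.5% of 1983 genes were higher and 10.2% lower against KO, and 34.4% of 1676 were higher and 15.8% lower against WT. The summed vascular markers were themselves at 1409, 1867 and 4011 CPM in these barcodes, in the same order, and the part of this difference in the Flt1 result was not tested.

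At 1000 UMIs a barcode, Flt1 was seen in 2 of 33 vascular barcodes in WT (6.06%), against 0 of 50 for KO and 34 of 96 for KO_PBS (35.4%, 25.9 to 45.8), where 1 shallower barcode was left out. The 0 of 50 allows up to 7.11% of barcodes with a UMI at this depth, a limit on detection and not on expression. Each barcode was thinned by 1 random draw per depth, and the intervals do not cover variation between draws. Before thinning the shares were 48.5%, 18.0% and 58.8%, and at 2000 UMIs a barcode 27.3%, 10.2% and 50.7%. As background, lens barcodes, from a tissue without vessels, gave 3 of 662, 2 of 144 and 5 of 240 at the same depth, or 1.81%, 5.56% and 3.6% before thinning at median depths of 2406, 3466 and 1651 UMIs. In KO_PBS, 17 vascular barcodes held 3 or more Flt1 UMIs and 1 held 16. Despite this enrichment, vascular barcodes held only 2.15%, 0.398% and 2.53% of the Flt1 UMIs of WT, KO and KO_PBS, where the class held 0.0840%, 0.0701% and 0.152% of all UMIs. These shares depend on the score that defines the class, and were 1.12%, 0.0853% and 1.12% at a score of at least 12. Barcodes were also simulated from the summed profile of the vascular barcodes already called, at depths of all barcodes that passed the filters. The rule recovered 27, 43 and 42 of 100 of these in the 3 libraries. As they were drawn from barcodes the rule had chosen, this does not tell how many real vascular nuclei were missed. Corneal epithelium, a known source of the soluble form, had Flt1 at 4.83, 5.98 and 24.8 CPM in its barcodes, which was not above the reference in any library. There Flt1 was 4.14-fold (2.38 to 7.34) higher in KO_PBS than in KO, where 29.2% of 9339 genes were higher. Against WT it was 5.12-fold (2.82 to 9.61) higher, where 48.8% of 8665 genes were. Flt1 was also above the reference in mural barcodes, those of the cells that wrap vessels, with 5 UMIs in 56 barcodes of WT and 4 in 23 of KO. The mixed barcodes of KO_PBS, which carried markers of more than 1 class and were left out, held 32 Flt1 UMIs in 46 barcodes.

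Kdr was at 55.8 CPM in the vascular barcodes of WT (12 UMIs), 85.2 in KO (21 UMIs) and 137 in KO_PBS (37 UMIs), 12.7, 7.49 and 6.16 times the low-UMI level. It was above the reference in all 3 libraries, and KO_PBS against KO, at 1.61-fold (0.918 to 2.89), did not pass the rule of size. The pairs with WT held too few UMIs for the rule. Nrp1 was at 74.4, 89.3 and 196 CPM and was also above the reference in each. Nrp2 was at 41.8, 44.7 and 219, and in KO its interval of 22.3 to 79.9 included the low-UMI level of 35.3. Nrp1 was 2.20-fold (1.32 to 3.80) and Nrp2 4.90-fold (2.55 to 10.3) higher in KO_PBS than in KO, where 18.5% of 1983 genes were higher. The summed vascular markers also rose in these barcodes, from 1867 CPM in KO to 4011 in KO_PBS. The part of that rise in the Nrp1 and Nrp2 ratios was not tested. Among the ligands, Vegfc reached 81.6 CPM in KO_PBS (22 UMIs), 10.2 times the low-UMI level, with 2 UMIs in KO and 0 in WT. Vegfb was not above the reference in vascular barcodes of any library.

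**Figure D4:**
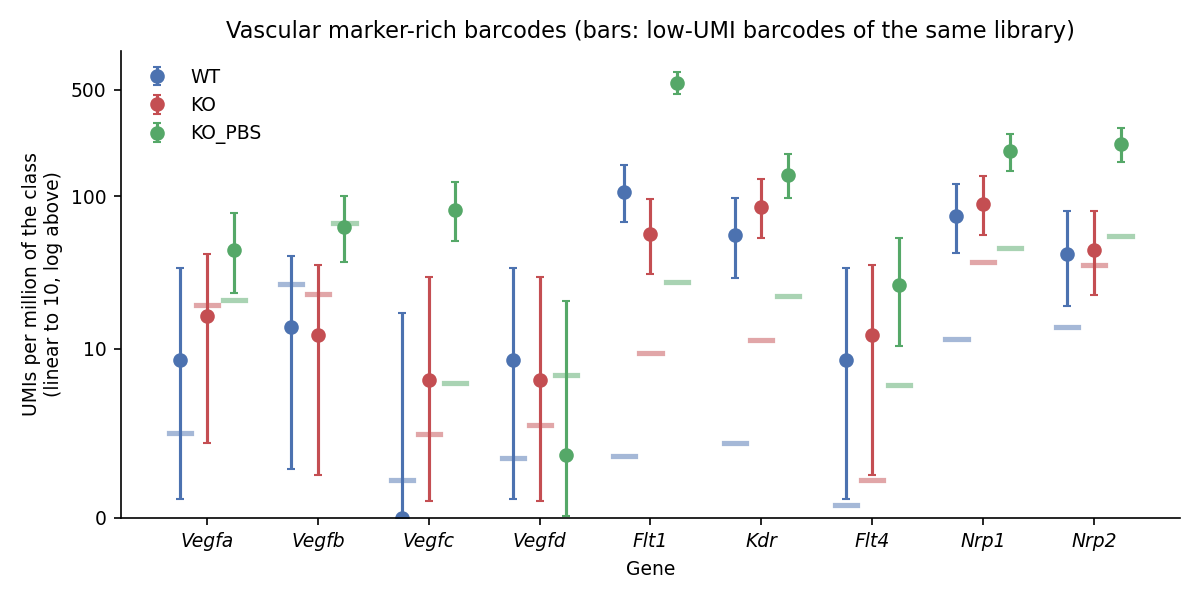
CPM of the summed vascular marker-rich barcodes (33 in WT, 50 in KO, 97 in KO_PBS) for each gene, with 95% Poisson intervals, on an axis that is linear to 10 and logarithmic above; short bars are the low-UMI barcodes of the same library. Flt1 in KO_PBS, at 552, lies above every other point. Among the ligands, the intervals of Vegfc (81.6) and Vegfa (44.5) in KO_PBS alone lie above those of their bars.

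In both knockout libraries Flt4 was highest in lymphatic marker-rich barcodes, which were chosen on markers that include Ccl21a, Lyve1, Mmrn1 and Reln. The genes that came next in KO, and were not used to choose them, were Hbb-bs, Igkv3-7, Lrg1, Gng11 and Hbb-bt, among them 2 haemoglobin genes and 1 immunoglobulin gene. WT had 2 of them, KO 26 and KO_PBS 11, so no ratio between libraries is given. In KO they held 7 Flt4 UMIs, or 62.2 CPM (25.01 to 128) against 2.22 in low-UMI barcodes. In KO_PBS they held 16, or 385 CPM (220 to 625) against 7.86, in 8 of 11 barcodes. Flt1 had 0 UMIs in those 11 barcodes. They held 41603 UMIs in all, and Flt1 was at 27.3 CPM in low-UMI barcodes of KO_PBS, so the 0 does not show that Flt1 was absent.

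Outside the vessels, Kdr and the co-receptors were above the reference in some stromal and corneal endothelial barcodes. Kdr in keratocyte marker-rich barcodes was at 14.7 CPM in WT (123 UMIs, 2040 barcodes) against 4.40 in low-UMI barcodes, and at 16.7 in KO (130 UMIs, 1946 barcodes) against 11.4. These barcodes held 11.4% of all Kdr UMIs in WT, where they held 3.27% of all UMIs, and 3.28% in KO, where they held 2.22%. Nrp1 was above the reference in the same barcodes in each library, at 27.6 CPM in WT, 47.0 in KO and 137 in KO_PBS, though the KO_PBS value rests on 9 UMIs in 27 barcodes. Vegfa was 3.96-fold higher (2.83 to 5.64) and Nrp2 2.33-fold higher (1.91 to 2.86) in keratocyte barcodes of KO than of WT, where 16.7% of 12403 genes were higher. Neither lay above the low-UMI barcodes of its own library. The same held in corneal epithelium barcodes, where Vegfa was 3.68-fold (2.05 to 7.00), Nrp1 4.54-fold (2.62 to 8.34) and Nrp2 4.63-fold (2.76 to 8.17) higher for KO against WT and 17.5% of 9315 genes were higher.

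Corneal endothelium barcodes, from the single layer on the inner face of the cornea, held Nrp2 at 30.3 CPM in WT, 56.2 in KO and 148 in KO_PBS. Each was above the low-UMI level, by 2.17, 1.59 and 2.71 times. Nrp1 stood at 28.4, 48.6 and 122 and was above the reference in WT and KO_PBS. Kdr stood at 8.85, 14.3 and 43.8 CPM and was likewise above it in WT and KO_PBS but not in KO. Nrp2 was 2.63-fold (2.01 to 3.49) higher in KO_PBS than in KO in this class, where 25.5% of 8780 genes were higher. Kdr (3.07-fold), Vegfb (2.70), Nrp1 (2.50) and Vegfa (2.04) were also higher there. Vegfb, at 65.7 CPM in this class of KO_PBS, was not above the low-UMI level of 66.2, which itself was 22.7 in KO. The summed corneal endothelium markers also rose in these barcodes, from 3915 CPM in KO to 8250 in KO_PBS. The part of that rise in these ratios was not tested. Flt1, at 1.82-fold, did not pass, and Vegfc, Vegfd and Flt4 held too few UMIs for the rule. Macrophage marker-rich barcodes of KO_PBS also had Nrp2 at 197 CPM (64 UMIs) and Nrp1 at 123 (40 UMIs), above the low-UMI levels of 54.6 and 46.0. In KO, macrophage barcodes had 44.8 and 41.9, which were not above the reference. In WT, Nrp1 was above it, at 25.2 CPM (12 UMIs), and Nrp2 was not, at 8.39 (4 UMIs).

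The classes in which ligands stood above the reference differed between genes and libraries, and the source of most ligand UMIs was not identified. Vegfa was at 137 CPM (102 to 181, 50 UMIs) in 129 retinal pigment epithelium marker-rich barcodes of KO_PBS, 6.58 times the low-UMI level, while WT had 1 UMI in 65 barcodes and KO had 2 in 36. The pigment epithelium, which lies behind the retina and not in the cornea, is a known source of Vegfa. Vegfa was also above the reference in KO_PBS in melanocyte (72.3), skeletal muscle (89.2), corneal endothelium (42.7) and vascular barcodes (44.5 CPM). In KO, whose Vegfa level was 4.35-fold that of WT over all barcodes, 0 of 13 classes with at least 20 barcodes were above the low-UMI level. In WT the only such class was macrophages, from 7 UMIs. Vegfb was above it in melanocyte barcodes of WT, at 71.4 CPM against 26.4, and of KO_PBS, at 96.7 against 66.2, and in pigment epithelium barcodes of WT, at 53.0, but in 0 classes of KO. Vegfc was above it in keratocyte, macrophage and skeletal muscle barcodes of WT and in melanocyte and pigment epithelium barcodes of KO_PBS besides the vascular ones, and Vegfd in corneal epithelium, corneal endothelium and melanocyte barcodes of KO_PBS.

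**Figure D5:**
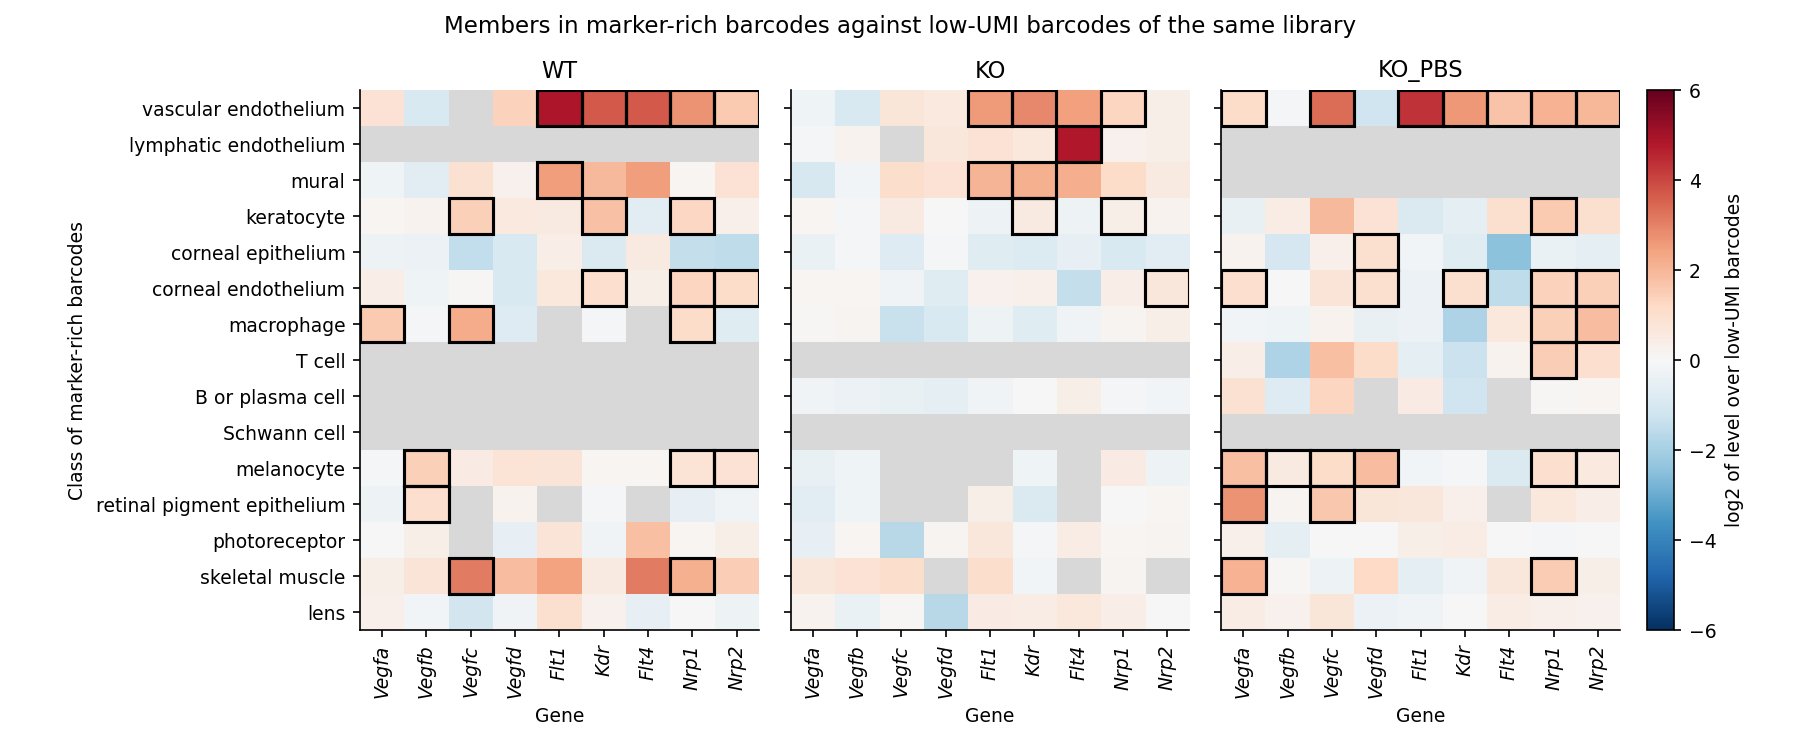
log2 of each gene's level in marker-rich barcodes over its level in low-UMI barcodes, by class (rows) and library (panels); boxed cells have an interval above that of the low-UMI barcodes, and grey marks classes with under 20 barcodes or genes with 0 UMIs. The vascular row is boxed for Flt1, Kdr and Nrp1 in all 3 panels, and the panel for KO has the fewest boxes outside that row for ligands (0).

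Pairs of members were seen together in a minority of the barcodes that held either. Nrp1 and Nrp2 met in 163, 1711 and 1392 barcodes of WT, KO and KO_PBS, or 5.71%, 13.9% and 14.2% of those with Nrp1. Nrp2 was in 3.39%, 10.3% and 8.79% of the barcodes without Nrp1, which were shallower, at a median of 2243, 2917 and 1399 UMIs against 2687, 3461 and 1713. Of 5243 KO_PBS barcodes with a Flt1 UMI, 5.93% also had a Kdr UMI, against 3.61% of the others, and their median depths were 1667 and 1412 UMIs. Within the 97 vascular barcodes of KO_PBS, Kdr was seen in 19 of 57 with Flt1 and in 22.5% of those without. Nrp1 was seen in 42.1% of those with Flt1 (24 barcodes) and in 20.0% of the others, and depth was higher in the barcodes with Flt1, at a median of 2583 against 2281 UMIs. Barcodes with at least 2 UMIs of a member numbered 61, 177 and 456 in WT, KO and KO_PBS for Flt1, among barcodes that passed the filters. Of these, 3, 3 and 32 were vascular, while 47, 161 and 392 had no class.

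The genes whose level over the 36 combinations of class and library with at least 20 barcodes was most like that of Flt1 were Egfl7 (Pearson's r of 0.84), Kdr (0.82), Arhgap31 (0.82), Emcn (0.80) and Plvap (0.79), out of 9376 genes. Egfl7 and Emcn are also markers used to find the vascular class. For Vegfa the most alike were Me3 (0.75), Cdc14a (0.71), Plcl1 (0.68), Arfgef2 (0.66) and Fam13a (0.65), and r between Vegfa and Flt1 was 0.12. For Nrp1 they were Diaph2 (0.80), Lamc1 (0.80), Dock4 (0.75), Calcrl (0.74) and Ptprm (0.73). For Nrp2 they were Tmem173, Dock4, Rilpl2, Itga1 and Xxylt1, at 0.69 to 0.71, and r between Nrp1 and Nrp2 was 0.66. These points share libraries and depth, and the values only describe them.

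Other genes of the pathway were read by list, against a background of 20.6% of all genes higher in KO against WT and 39.9% in KO_PBS against KO. Relative to the median of all genes, 14.8% were higher and 12.9% lower in KO against WT. For KO_PBS against KO these shares were 29.9% and 12.9%. Among 7 other ligands and receptors of the VEGF and angiopoietin families, 1 was higher in KO than in WT, Angpt1, the stabilising ligand of Tek, with a log2 ratio of 1.37. In KO_PBS against KO, 4 of 7 were higher, among them Pgf (3.56) and the angiopoietin receptors Tie1 (1.71) and Tek (1.17). Relative to the median of all genes 2 were higher, and Tek, at 0.54, was not. Of 18 genes of the endothelial VEGF response and sprouting, 11 were higher and 0 lower in KO than in WT, or 8 and 0 relative to the median of all genes, with a list median of 1.13 against 0.24 for all genes. Cxcr4 (7.03), Egr3 (4.60) and the apelin receptor Aplnr (2.36) had the largest ratios, and Cxcr4 is also a receptor of lymphocytes. In KO_PBS against KO, 6 of 18 were higher, or 3 higher and 4 lower relative to the median of all genes, at a list median of 0.48 against 0.63, led by the Notch targets Hey2 (4.08) and Hey1 (3.01) and by Notch4 (1.72).

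Of 20 genes of VEGF receptor signalling, 6 were higher in KO than in WT, at a median of 0.74, and 5 relative to the median of all genes. In KO_PBS against KO 1 was higher, Prkcb (2.00), and relative to that median 1 was higher and 1 lower. Sh2d2a, an adaptor of Kdr and of T cells, had a log2 ratio of 5.80 in KO against WT and Fyn, a Src-family kinase, one of 2.82. Among 19 measured hypoxia-response genes KO was above WT for 7, or 4 relative to the median of all genes, at a list median of 0.62, led by Adm (2.07), Bnip3 (1.86) and Ndrg1 (1.66). In KO_PBS against KO, 3 of 19 were higher, Slc2a1 (1.72), Car9 (1.67) and Aldoa (1.01), at a median of 0.24, and relative to the median of all genes 2 were higher and 3 lower.

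Of 14 angiogenesis inhibitors 8 were higher and 0 lower in KO than in WT on either scale, at a median of 1.65. The chemokine Cxcl9 went from 0.359 to 203 CPM and Cxcl10 from 0.359 to 51.1. Chil1 went from 13.3 to 214 CPM and is one of the 8, but it is better known for promoting vessel growth and is misplaced in this list, so the counts of the list hold 1 gene of the opposite role. In KO_PBS against KO, 5 were higher, led by Col18a1 (3.09), the source of endostatin, Vash1 (2.63) and Col4a3 (2.50), and 1 was lower, Thbs2 (-1.67), while relative to the median of all genes 4 were higher and 3 lower. Of 12 class 3 semaphorins and plexins, the other ligands and partners of Nrp1 and Nrp2, 4 were higher in KO than in WT. Among them were Plxnd1 (2.52), Sema3g (1.25) and Sema3a (1.14), where 20.6% of all genes were higher. Relative to the median of all genes 2 were, Plxnd1 (2.28) and Sema3g (1.01), where 14.8% of genes were. Sema3a (0.90) was no longer counted. In KO_PBS against KO, 4 of 12 were higher, among them Sema3b (2.97), Sema3g (2.48) and Sema3e (1.77), and relative to that median 3 were higher and 2 lower. The part in these lists of the immune cells whose markers were higher in KO was not tested.

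Against WT, KO_PBS was higher for 5 of the 7 other ligands and receptors, 13 of 18 sprouting genes, 12 of 20 signalling genes, 11 of 19 hypoxia genes, 11 of 14 inhibitors and 9 of 12 semaphorins and plexins, where 57% of all genes were higher. Relative to the median of all genes the counts higher and lower were 3 and 1, 8 and 3, 3 and 2, 3 and 5, 8 and 0, and 5 and 1 in the same order of lists. On that scale 29.6% of all genes were higher and 23.1% lower. The 3 largest ratios per list were those of Pgf (3.04), Tie1 (2.64) and Angpt1 (2.28), of Cxcr4 (6.49), Egr3 (4.47) and Hey2 (3.66), and of Sh2d2a (5.67), Fyn (3.06) and Prkcb (2.85). For the other lists they were those of Slc2a1 (3.02), Adm (2.36) and Ndrg1 (2.28), of Cxcl9 (9.66), Cxcl10 (7.73) and Col18a1 (4.00), and of Sema3g (3.73), Plxnd1 (3.31) and Sema3b (3.12). On the library total 2 genes of these lists were lower, Nrarp (-1.19), a Notch feedback gene, and Shb (-1.02), an adaptor of Kdr, named after their values were seen.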

How the data were processed

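For each of 3 single-nucleus libraries the authors deposited raw UMI counts, by gene and barcode. Counting used Cell Ranger 7.0.1, per the file headers, and build mm10, per the submitters' processing notes. Which annotation was used, whether introns were counted and how barcodes were filtered is not given in the sources used here. The KO_PBS file lists 31053 genes and the others 32285, and some shared genes carry other symbols there. KO_PBS was thus listed with another gene annotation than WT and KO. This could touch every KO_PBS ratio, and its part was not tested. Genes were joined by Ensembl ID, and the 30406 genes listed in every library held 99.3% to 99.6% of the UMIs. Of these, 597 carried another symbol in the KO_PBS list. UMIs were summed per library or class and divided by the total over those genes. Coordinates are from GENCODE M21, and promoter windows from RefSeq GRCm38.p6, where all 9 members had a window.

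The members and lists were chosen with earlier results of these data known. Text names all members, up to 3 genes per list and comparison with the largest ratio among those passing the rule of size, and the 5 genes most like Flt1, Vegfa, Nrp1 and Nrp2. 1 gene that this rule names is not reported here. The rule of size needs 50 UMIs over both libraries, a fold of 2 with counts under 3 set to 3, and Poisson intervals that do not overlap. Barcodes for classes needed 500 genes and at most 5% mitochondrial UMIs. A barcode that passed for both vascular and lymphatic endothelium was treated as lymphatic, so the vascular class lacks such barcodes. After that, a barcode whose second class scored at least 50% of the first was left out as mixed (116 in WT, 60 in KO and 46 in KO_PBS). Doublets were not called otherwise. Intervals are Poisson for levels and Clopper-Pearson for shares. Leading genes were ranked with a pseudocount of 10 CPM.

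On simulated data, 4-fold changes were recovered for 100 of 100 genes in each comparison, among 30406 genes. TMM factors came from edgeR 4.0.16, and the rest from scipy 1.17.1, numpy 2.4.6, pandas 2.3.3 and matplotlib 3.10.9 under python 3.11.15. Alternatives were other scalings, filters, class thresholds and thinning depths, and the low-UMI barcodes alone, which were added after seeing the data.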

Additional observations from a re-analysis of the deposited data

How the results depend on the processing

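The count of members higher in KO_PBS than in KO, 6 on the library total, was 2 relative to the median of all genes, 2 with TMM scaling and 3 in the low-UMI barcodes alone, a reference chosen after seeing the data. The counts for KO against WT (6 to 8) and KO_PBS against WT (6 to 9) stayed within 1.5 times the reported ones under every alternative run. The share of all genes was counted only on the library total and relative to the median, so counts under other settings have no background. Flt1 UMIs per Vegfa UMI were 0.730 in WT and 1.31 in KO_PBS in the low-UMI barcodes, and 1.18 in KO_PBS in barcodes with at least 1000 genes. Per ligand UMI the corresponding values were 0.0985, 0.264 and 0.304. With a class score of at least 12, vascular barcodes held 1.12%, 0.0853% and 1.12% of the Flt1 UMIs of WT, KO and KO_PBS, and the level in KO_PBS was 709 CPM. Thinned to 2000 UMIs, Flt1 was seen in 27.3%, 10.2% and 50.7% of vascular barcodes. The cause of these shifts was not tested. The other 83 summary values stayed within their limits. Of the values of single genes and classes, 229 stayed within counting error and 104 moved beyond it, and no called value changed sign.

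No paired analysis was possible because each group has 1 library, and for the same reason no replicate could be left out. Differences under 2-fold are not counted by the rule, and of simulated 1.5-fold changes 1 to 4 of 100 genes were. Class levels rest on few UMIs, 14 to 149 for Flt1 in vascular barcodes.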
